A study of Mus musculus with 6 samples.

Results

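The 30 genes described here encode the mitochondrial enzymes and carriers that burn fatty acids in the liver and part of the machinery that turns the product into ketone bodies. They were chosen by name, each symbol matching 1 row of the deposited tables, and make up 30 of 55487 genes. All 30 passed the filter on low counts and belong to the 14286 genes tested. By step, 8 genes act in fatty acid activation and the carnitine shuttle, 2 are thioesterases, 15 act in the oxidation spiral, 3 transfer electrons and 2 act in ketone body metabolism.

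The study sequenced poly(A) RNA from mouse livers, all of males fed a high-fat diet (HFD), in 6 libraries, 3 per genotype. The control libraries have the genotype Alb cre +/-, and their titles call them WT. The mutant libraries have the genotype RXRa f/f Alb cre+/-, and their titles call them Cre. Both groups are of the strain C57/Bl6J, both received the HFD, and both carry the Alb cre transgene, whose Cre recombinase is driven by the albumin promoter and therefore acts in hepatocytes. The series' description calls the mutants Rxra S65A mutants, and how this substitution relates to the f/f allele is not stated. The sources used here give neither the ages nor the time on the diet. The labels also do not state that the libraries come from separate animals, and p-values then measure only the spread between these libraries, which may be technical.

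Fatty acid oxidation in mitochondria starts with the activation of a fatty acid to acyl-CoA, which is passed to carnitine, carried across the inner membrane and returned to CoA in the matrix. The spiral then removes acetyl-CoA units by repeated dehydrogenation, hydration, dehydrogenation and thiolysis, and the electrons of the first dehydrogenation reach the respiratory chain through the electron transfer flavoprotein. In the liver, surplus acetyl-CoA is made into ketone bodies, and many genes of the pathway are classical targets of PPAR alpha, which binds DNA together with the retinoid X receptor alpha encoded by Rxra.

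Rxra itself had 501, 471 and 414 CPM in the control libraries and 699.9, 522 and 609 CPM in the mutant libraries (CPM, the share of a library's estimated counts on a fixed base, after the scaling explained next). All 3 mutant values lay above the control values, and the difference did not pass the test (log2 fold change 0.40 ± 0.13, edgeR quasi-likelihood test, adjusted p = 0.0724). This outcome depended on the setting. DESeq2 and edgeR without the low-count filter put Rxra under the threshold of 0.05 (adjusted p = 0.0311 and 0.0356). So did edgeR without mutant 2 (0.50, adjusted p = 0.0388), but not without any other single library. On the other scales explained next, Rxra was at 0.0073 with library totals and -0.20 on log2(TPM + 1). Neither passed (edgeR, adjusted p = 0.971, and limma, adjusted p = 0.240). A level of mRNA does not check an exchange of 1 amino acid. The label of liver was checked against 10 hepatocyte markers, all of which were detected, with a summed level of 86468 to 98115 CPM in the control and 94215 to 108494 CPM in the mutant libraries.

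The direction given to the members depended on the scaling of the libraries. Library totals were 35847386 to 43162557 estimated counts, and the TMM scaling factors of edgeR were 1.15 in each control library and 0.863 to 0.886 in the mutant libraries. TMM sets the typical gene equal in both groups, with a median log2 fold change over all tested genes of 0.00. With plain library totals that median was -0.40, and on log2(TPM + 1), where TPM is the deposited length-scaled abundance and 1 the pseudocount, it was -0.48. Higher and lower below mean relative to the typical gene, with TMM, unless another scale is named. Fold changes are mutant against control on the log2 scale with their standard error, a gene was called at an adjusted p under 0.05 over all tested genes, and n = 3 libraries per group throughout.

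Of the 30 members, 11 were called higher in the mutants with TMM, 2 were called lower and 17 did not pass. The share called higher, 36.7%, stands beside 6.64% of all tested genes, and the share called lower, 6.67%, is near the 6.82% of all tested genes. At a mean control TPM of at least 100, the level of most members, 11 of 24 members and 30.4% of all tested genes were called higher. The median log2 fold change of the members was 0.28. In CPM after TMM, the 3 control and 3 mutant values did not overlap in 24 members, or 80%, against 34.9% of all tested genes. Of these, Acsl1, Cpt1a, Cpt2, Acadvl, Acaa2 and Eci2 overlapped between the groups in TPM. Others, such as Hadha, Hadhb, Acadm and Etfa, were apart in TPM with the mutants lower, while Etfb was apart with the mutants higher. With library totals, 1 member was called higher and 8 lower, against 2.05% and 31.6% of all tested genes, and the members' median was -0.12. On log2(TPM + 1), 0 members were called higher, 22 of 30 were called lower, the background was 1.88% and 63.6% of 11567 genes, and the members' median was -0.33. On TPM, most members and most tested genes were thus called lower. The members' median lay above that of all genes on all 3 scales, by 0.28, 0.27 and 0.16. A change of scaling moves nearly all genes by a similar amount, so these 3 gaps are not separate results. The gap on TPM was taken over 11567 genes in place of 14286. With TMM and 1 library left out, 5 members were called higher without control 1, control 2 or mutant 2, 6 without control 3 or mutant 1, and 9 without mutant 3. The number called lower was 0 without control 1, control 2 or mutant 1, 1 without mutant 2 or mutant 3, and 2 without control 3. Without mutant 3, these included 8 of the 11 members called higher with all libraries and 0 of the 2 called lower. Acadl was newly called higher there and Acad10 newly called lower.

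**Figure D1:**
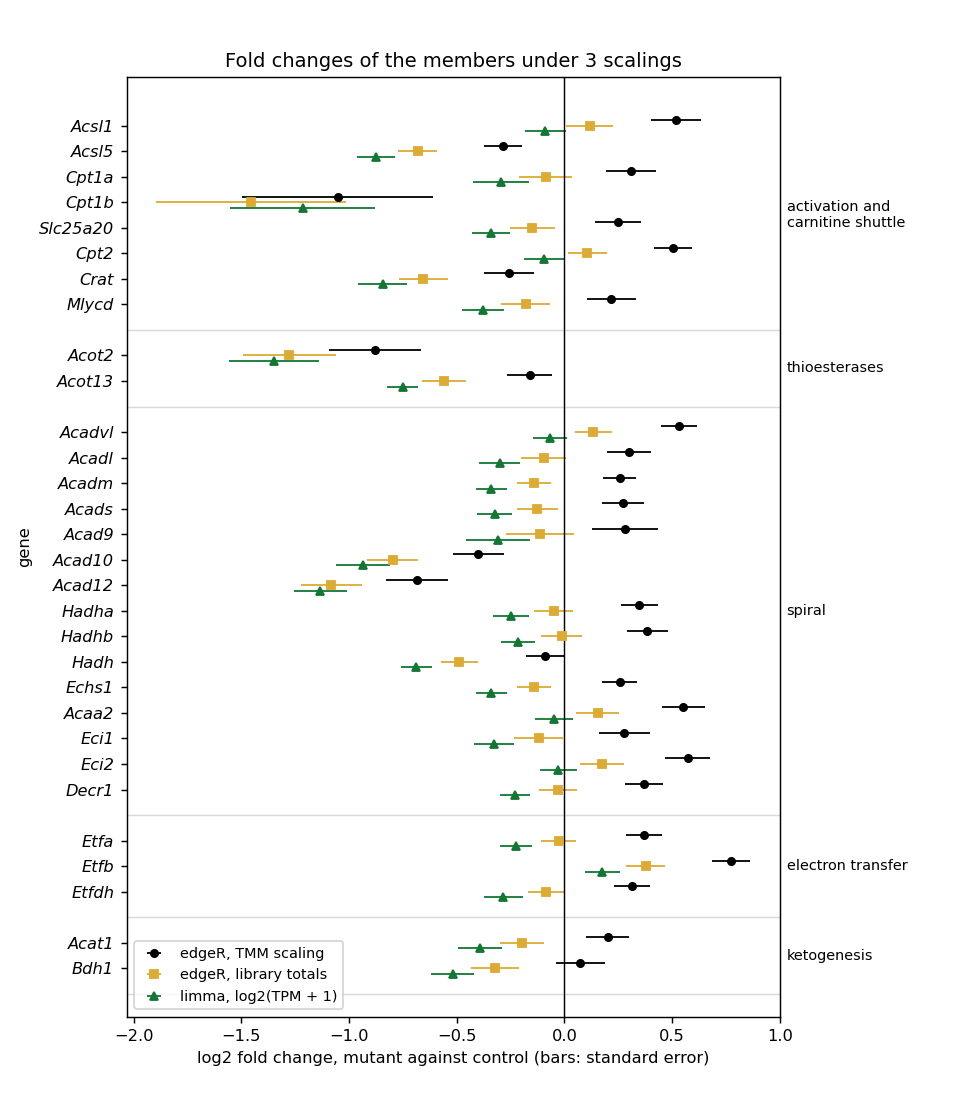
Log2 fold change of each member, mutant against control, with its standard error, for edgeR with TMM scaling (circles), edgeR with library totals (squares) and limma on log2(TPM + 1) (triangles). The estimates with library totals lie below those with TMM by a nearly constant amount, and those on TPM lie lower still for most members but not for Cpt1b. There are 22 members above 0 with TMM and fewer with the other scalings. Acsl5, Cpt1b, Crat, Acot2, Acot13, Acad10, Acad12 and Hadh lie below 0 on all 3.

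On the scale of TPM, which is per length, the members' summed TPM was 7874, 7823 and 8008 in the control libraries and 6833, 6652 and 6475 in the mutant libraries. The mutant sums were thus all lower, from 0.790% to 0.665% of a library's transcripts. Acaa2 was the most abundant member in both groups (901 ± 33.2 TPM in the controls, 873 ± 70.4 in the mutants), followed by Acsl1 (687 ± 28.5 and 648 ± 64.7). Neither difference passed on this scale (limma, adjusted p = 0.628 and 0.426). Cpt1b was the least abundant (5.93 ± 3.19 and 1.87 ± 0.820). Of the 24 members with a mean control TPM of at least 100, 11 were called higher with TMM and 0 lower. Among all 1103 tested genes at that level, 30.4% were called higher and 6.98% lower. Of the 6 members under 100 TPM, 0 were called higher and 2 lower, beside 4.66% and 6.80% of the 13183 other tested genes. The medians were 0.30 and -0.54 for these members and 0.23 and -0.02 for all genes of the same levels. No test of a difference was made.

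**Figure D2:**
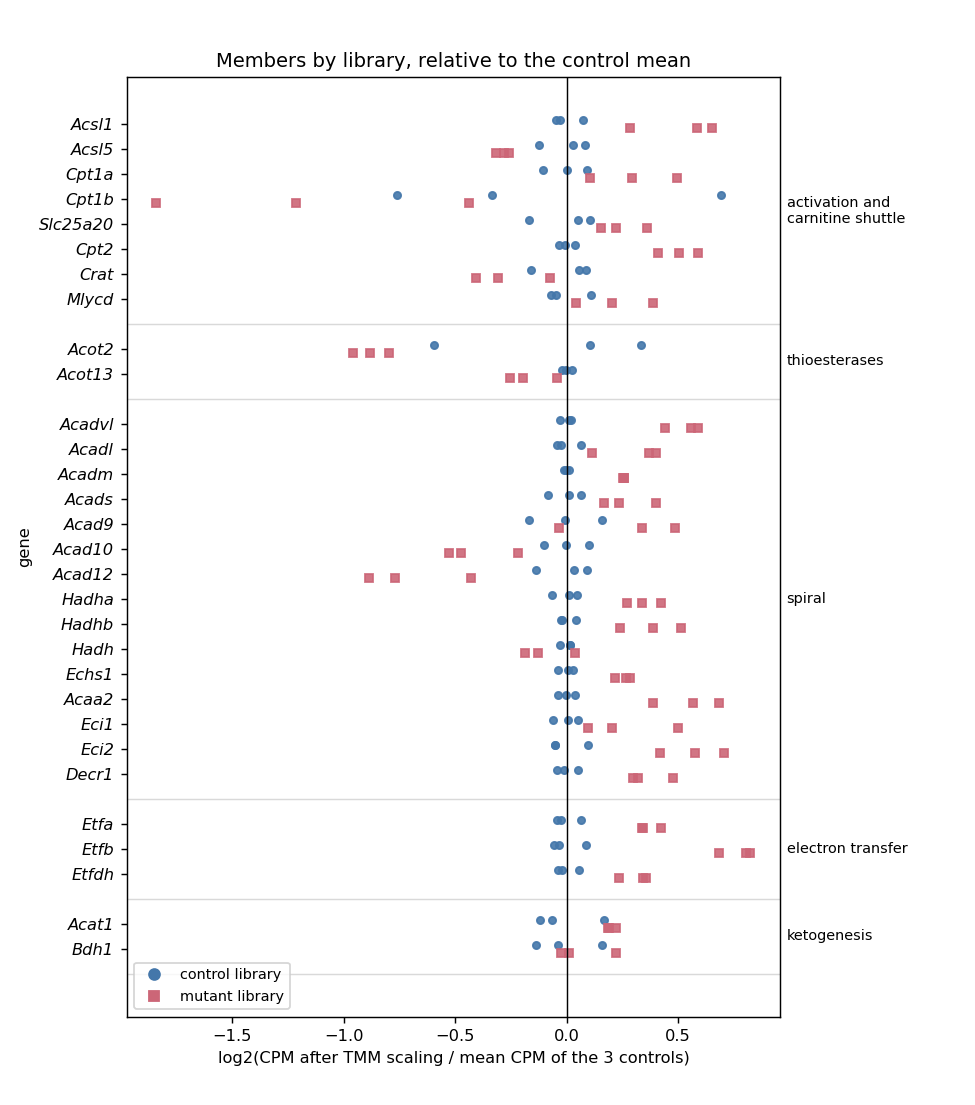
CPM after TMM scaling of each member in each library, as log2 of the ratio to the control mean, grouped by step. The mutant values (squares) of 19 members lie above all control values (circles) and those of 5 lie below; the spread is widest for Cpt1b. With library totals, 16 of the 22 members above 0 change to below 0.

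Activation of fatty acids is split between the long-chain acyl-CoA synthetases Acsl1 and Acsl5. Acsl1, the main such enzyme of the liver, had 1751, 1613 and 1630.4 CPM in the control libraries and 2028, 2619 and 2497 CPM in the mutant libraries. Every mutant value exceeded every control value, and Acsl1 was higher by a log2 fold change of 0.52 ± 0.12 (edgeR, adjusted p = 0.0241), a value of 0.12 with library totals and -0.09 on TPM. Acsl5 had 329, 297 and 343 CPM in the control libraries and 259, 266 and 270.1 CPM in the mutant libraries. Here the mutants were low without overlap, but with TMM the difference did not pass (-0.28 ± 0.09, edgeR, adjusted p = 0.0706); with library totals it did (-0.68, adjusted p = 0.00157). A measure that does not depend on the scaling is the ratio of both within a library. The Acsl5 to Acsl1 ratio of TPM was 0.401, 0.393 and 0.448 in the controls and 0.273, 0.217 and 0.231 in the mutants. The log2 difference was -0.79, with no overlap between the groups. The pairs of this and all later ratios were chosen with the values known, so a lack of overlap is no separate result.

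Entry into the mitochondrion is controlled by carnitine palmitoyltransferase 1, inhibited by malonyl-CoA. Its liver form Cpt1a had 889, 835 and 776 CPM in the control libraries and 1175, 898 and 1023 CPM in the mutant libraries. Mutant 2 lay only just above control 1, and the difference did not pass (0.31 ± 0.12, edgeR, adjusted p = 0.122). The muscle form Cpt1b had 15.6, 7.63 and 5.68 CPM in the control libraries and 2.69, 7.11 and 4.14 CPM in the mutant libraries. Control 1 stood above the other libraries and the groups overlapped, with -1.05 ± 0.44 (edgeR, adjusted p = 0.156). The value was -0.52 without control 1 and -1.50 without mutant 2. Cpt1b was called lower with library totals (-1.45, adjusted p = 0.0351), on TPM (-1.21, limma, adjusted p = 0.016), with no filter (edgeR, adjusted p = 0.0385) and with DESeq2 (adjusted p = 0.0429). Markers of skeletal and cardiac muscle, where Cpt1b is the main form, were at or near 0: 9 of 12 were at 0 in all libraries, among them Ckm and Acta1, and the other 3 were under 1 CPM. The summed muscle markers were 0.130 to 0.879 CPM in the controls and 0.313 to 0.544 CPM in the mutants.

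The matrix side of the shuttle held the smallest p of this step. Cpt2, which returns the acyl group to CoA, had 193, 199 and 189 CPM in the control libraries and 292, 257 and 275 CPM in the mutant libraries. Every mutant value was well above the highest control value, and Cpt2 was higher by 0.50 ± 0.09 (edgeR, adjusted p = 0.00926), with 0.11 at library totals and -0.09 on TPM. The carnitine-acylcarnitine carrier Slc25a20 had 173, 179.6 and 148 CPM in the control libraries and 186, 214 and 195 CPM in the mutant libraries, apart but not passing (0.25 ± 0.11, edgeR, adjusted p = 0.16). Crat, which transfers acetyl groups and other short chains to carnitine, had 158, 161 and 136 CPM in the control libraries and 114, 123 and 144 CPM in the mutant libraries, with mutant 3 inside the control range (-0.26 ± 0.12, edgeR, adjusted p = 0.19). It was called lower with library totals (-0.65, adjusted p = 0.00494) and on TPM (-0.84, limma, adjusted p = 0.00135). Mlycd, whose product degrades malonyl-CoA, had 90.5, 103 and 92.1 CPM in the control libraries and 109, 124 and 97.9 CPM in the mutant libraries, overlapping (0.22 ± 0.11, edgeR, adjusted p = 0.242). In all, 2 of the 8 shuttle genes were called higher with TMM and 0 lower; with library totals 0 were called higher and 3 lower. The Acsl1 call was kept only without mutant 1 (adjusted p between 0.019 and 0.0807), and the Cpt2 call was kept with each of the 6 left out (adjusted p between 0.0119 and 0.0446).

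The matrix thioesterase Acot2 hydrolyses long-chain acyl-CoA to free acid and CoA. Its values were 47.2, 40.3 and 24.8 CPM in the control libraries and 19.2, 20.3 and 21.5 CPM in the mutant libraries. Mutant libraries were low and close together, the control libraries were spread, and control 3 came near the mutants. Acot2 was called lower, with a log2 fold change of -0.88 ± 0.21 (edgeR, adjusted p = 0.0321), with -1.28 at library totals and -1.35 on TPM. The call was kept without control 3 and lost without each of the other 5 libraries (adjusted p between 0.00489 and 0.0992). The smaller thioesterase Acot13 had 32.0, 32.9 and 32.3 CPM in the control libraries and 27.2, 31.5 and 28.3 CPM in the mutant libraries, apart but not passing with TMM (-0.16 ± 0.10, edgeR, adjusted p = 0.346); with library totals it was called lower (-0.56, adjusted p = 0.00561).

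Reads of Acot2 can be mistaken for those of its cytosolic neighbour Acot1, a near-identical copy that is no member. Over 1239 aligned coding bases of the GENCODE transcripts, both were 95.2% identical, with 59 differences, and 10.2% of the 150-base windows of the Acot2 transcript, the length of a read, occur unchanged in the Acot1 transcript. The start of the aligned coding sequence is shown as a stretch in which reads can tell both genes apart: 11 of its 90 bases differ, in capitals, a denser set of differences than over the whole alignment. For Acot1 these are coding bases 1 to 90 and for Acot2 coding bases 124 to 213.
Acot1: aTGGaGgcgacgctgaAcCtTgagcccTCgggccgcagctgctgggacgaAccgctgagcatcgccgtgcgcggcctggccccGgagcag
Acot2: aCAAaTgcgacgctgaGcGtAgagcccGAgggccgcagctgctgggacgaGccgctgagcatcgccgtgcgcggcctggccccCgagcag
Acot1 had 113, 88.3 and 57.8 CPM in the control libraries and 151, 161 and 139.6 CPM in the mutant libraries, the opposite direction to Acot2 (0.80 ± 0.21, edgeR, adjusted p = 0.0406). Acot1 and Acot2 summed, which depends less on how reads were shared between them, came to 159.8, 129 and 82.6 CPM in the control libraries and 169.9, 181 and 161 CPM in the mutant libraries. All mutant sums were high, and the difference did not pass (0.47 ± 0.21, edgeR, adjusted p = 0.179). Over all of Acot1 to Acot6 the value was -0.04 ± 0.20 (edgeR, adjusted p = 0.915). The decrease of Acot2 alone is uncertain as far as reads were shared out between the copies. Both sums were added after the data were seen.

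Within the spiral, the first dehydrogenation is carried out by acyl-CoA dehydrogenases of different chain length. The very-long-chain enzyme Acadvl had 410.5, 425 and 423 CPM in the control libraries and 631, 617 and 570.2 CPM in the mutant libraries. The groups were far apart, and Acadvl was higher by 0.53 ± 0.08 (edgeR, adjusted p = 0.00646). Acadl, Acadm and Acads, for long, medium and short chains, had log2 fold changes of 0.30 ± 0.10, 0.26 ± 0.08 and 0.27 ± 0.10, none passing (edgeR, adjusted p = 0.0891, 0.0655 and 0.102). Acadm varied least of all members within a group, at 562, 557 and 553 CPM in the control libraries and 665, 666 and 666 CPM in the mutant libraries. Its groups did not overlap, but the direction turned with the scaling: Acadm was at -0.14 with library totals and was called lower on TPM (-0.34, limma, adjusted p = 0.00598). Acad9, which also helps to assemble respiratory complex I, had 31.0, 34.8 and 27.8 CPM in the control libraries and 43.8, 39.5 and 30.5 CPM in the mutant libraries, with overlap (0.28 ± 0.15, edgeR, adjusted p = 0.27).

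Acad10 and Acad12, less studied dehydrogenases that lie next to each other on chromosome 5 with starts 41576 bases apart, had lower values in the mutants. Acad12 had 30.7, 29.4 and 26.2 CPM in the control libraries and 15.6, 21.3 and 16.8 CPM in the mutant libraries. Every mutant value was below every control value, and Acad12 was called lower (-0.68 ± 0.14, edgeR, adjusted p = 0.0192; -1.08 with library totals and -1.13 on TPM). Acad10 had 42.4, 45.5 and 48.8 CPM in the control libraries and 32.9, 31.6 and 39.2 CPM in the mutant libraries, also without overlap. With TMM it did not pass (-0.40 ± 0.12, edgeR, adjusted p = 0.0607). It was called lower with library totals (-0.80, edgeR, adjusted p = 0.00264) and with DESeq2 (adjusted p = 0.0431). With TMM and without mutant 3 it was also called lower (edgeR, adjusted p = 0.0412). The ratio of Acad12 to Acadvl in TPM was 0.0366 ± 0.0034 in the control and 0.0158 ± 0.0026 in the mutant libraries (SD, n = 3). The log2 difference was -1.22 without overlap, for a pair chosen with its values known. The ratio of Acad12 to Acad10 overlapped between the groups, with a log2 difference of -0.29.

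The trifunctional protein, which handles long chains for the last steps of a turn, is built from the products of Hadha and Hadhb. Both genes start back to back on chromosome 5, Hadha on the minus strand at 30155162 and Hadhb on the plus strand at 30155248, 86 bases apart (mm10). The 85 bases between the annotated starts are shown because both subunits share them, with matches to the GC box GGGCGG in capitals (RefSeq, GRCm38.p6, chr5:30155163-30155247, plus strand).
Hadha and Hadhb: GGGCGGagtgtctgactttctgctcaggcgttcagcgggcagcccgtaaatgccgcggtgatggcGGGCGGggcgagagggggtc
Hadha had 493, 505 and 467 CPM in the control libraries and 656, 618 and 589 CPM in the mutant libraries. Hadhb had 361, 345 and 346 CPM in the control libraries and 459, 500.3 and 415 CPM in the mutant libraries. For both genes the groups were apart and the mutants high, with 0.35 ± 0.09 for Hadha and 0.39 ± 0.10 for Hadhb (edgeR, adjusted p = 0.0346 and 0.0338). The ratio of Hadhb to Hadha was 1.12 ± 0.048 in the control and 1.15 ± 0.096 in the mutant libraries (SD, n = 3) and overlapped. With library totals the fold changes of both were near 0 (-0.05 and -0.01), and on TPM both were lower (-0.25 and -0.21; limma, adjusted p = 0.0316 and 0.0448).

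The short-chain counterpart Hadh, the hydroxyacyl-CoA dehydrogenase of the matrix, was not called with TMM. It had 452, 466 and 466 CPM in the control libraries and 406, 473 and 422 CPM in the mutant libraries, overlapping (-0.09 ± 0.09, edgeR, adjusted p = 0.57). Hadh was called lower with library totals (-0.49, adjusted p = 0.00554) and on TPM (-0.69, limma, adjusted p = 0.000609). Relative to Hadha, its TPM ratio was 1.62, 1.63 and 1.76 in the controls and 1.09, 1.35 and 1.27 in the mutants. The log2 difference was -0.44, with no overlap. The hydratase Echs1 had 209.9, 203 and 213 CPM in the control libraries and 243, 251 and 254 CPM in the mutant libraries, apart but not passing (0.26 ± 0.08, edgeR, adjusted p = 0.0711).

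The thiolase Acaa2, which releases acetyl-CoA at the end of a turn, had 782, 763 and 806 CPM in the control libraries and 1162, 1260.1 and 1026 CPM in the mutant libraries. Mutant values were all high, and Acaa2 was higher by 0.55 ± 0.10 (edgeR, adjusted p = 0.0113). Auxiliary enzymes prepare unsaturated chains for the spiral. Of the enoyl-CoA isomerases, Eci2 had 275, 248 and 247 CPM in the control libraries and 383, 419 and 343 CPM in the mutant libraries and was higher by 0.57 ± 0.10 (edgeR, adjusted p = 0.0106), with no overlap. Eci1 had 190.4, 196 and 182 CPM in the control libraries and 218, 268 and 203 CPM in the mutant libraries and did not pass (0.28 ± 0.12, edgeR, adjusted p = 0.156). The Eci2 to Eci1 ratio of TPM was 1.09 ± 0.072 in the control and 1.34 ± 0.080 in the mutant libraries (SD, n = 3), higher by 0.30 on the log2 scale and without overlap. The dienoyl-CoA reductase Decr1 had 252, 236 and 242 CPM in the control libraries and 299, 339 and 303 CPM in the mutant libraries, high in all mutants (0.37 ± 0.09, edgeR, adjusted p = 0.0315).

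In all, 6 of the 15 spiral genes were called higher with TMM, 1 was called lower and 8 did not pass; with library totals 0 were called higher and 3 lower. Acadvl, Acaa2 and Eci2 were at 0.13, 0.15 and 0.17 with library totals and at -0.07, -0.05 and -0.03 on TPM, and Decr1 was at -0.03 and -0.23. Of the calls with TMM, those of Acadvl, Acaa2 and Eci2 were kept with each library left out in turn (adjusted p between 0.0109 and 0.0355, 0.00986 and 0.0477 and 0.0114 and 0.0464). Hadha and Hadhb kept the call only without mutant 3 (between 0.0435 and 0.127 and between 0.0275 and 0.106), Decr1 lost it without each of the 6 (between 0.0513 and 0.101), and Acad12 kept it only without control 3 or mutant 2 (between 0.00956 and 0.0738).

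The electron transfer flavoprotein, a dimer of the products of Etfa and Etfb, takes electrons from the acyl-CoA dehydrogenases and passes them through the oxidoreductase Etfdh to ubiquinone. With TMM all 3 genes were called higher, and with library totals Etfb alone. Etfb (ENSMUSG00000004610.4, chromosome 7, 43444083 to 43457800, plus strand, mm10) had 180.4, 199 and 183 CPM in the control libraries and 328, 332 and 301 CPM in the mutant libraries. The lowest mutant value was far above the highest control value, and the log2 fold change of 0.77 ± 0.09 was the largest increase among the members (edgeR, adjusted p = 0.00167). Etfb shares 617 exonic bases on the same strand with Gm45233, a gene without a row in the deposited tables, so its level could not be examined. Etfb was also the only member called higher with library totals (0.38, adjusted p = 0.0157), while on TPM its value of 0.18 did not pass (limma, adjusted p = 0.0859).

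Etfa had 282, 286 and 304 CPM in the control libraries and 368, 389.7 and 369 CPM in the mutant libraries. Its groups were apart with the mutants high (0.37 ± 0.08, edgeR, adjusted p = 0.0247). Etfdh had 359, 364 and 384 CPM in the control libraries and 468, 434 and 472 CPM in the mutant libraries, likewise apart (0.31 ± 0.08, edgeR, adjusted p = 0.0445). With library totals Etfa and Etfdh were at -0.03 and -0.08, and on TPM both were lower (-0.23 and -0.28; limma, adjusted p = 0.0288 and 0.0259). Within the dimer, the Etfb to Etfa ratio of TPM was 1.22, 1.33 and 1.15 in the controls and 1.70, 1.63 and 1.56 in the mutants. It was higher by 0.40 on the log2 scale in the mutants, with no overlap. The Etfb call was kept with each library left out (adjusted p between 0.00428 and 0.0112), the Etfa call was kept only without control 3 or mutant 3 (between 0.0475 and 0.0916), and the Etfdh call was lost without each of the 6 (between 0.0503 and 0.14).

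The bases just upstream of both subunit genes are shown because their products form the dimer. Whether these letters bear on the levels of Etfa and Etfb was not tested. Capitals mark matches to the CCAAT box on either strand (ATTGG on the strand printed where the match is on the other), and both stretches lie outside all annotated exons (RefSeq, GRCm38.p6; Etfa chr9:55512244-55512393, minus strand; Etfb chr7:43443922-43444071, plus strand).
Etfa: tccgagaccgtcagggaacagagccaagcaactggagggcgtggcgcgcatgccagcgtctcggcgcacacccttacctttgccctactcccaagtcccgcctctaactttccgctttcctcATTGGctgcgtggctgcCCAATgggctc
Etfb: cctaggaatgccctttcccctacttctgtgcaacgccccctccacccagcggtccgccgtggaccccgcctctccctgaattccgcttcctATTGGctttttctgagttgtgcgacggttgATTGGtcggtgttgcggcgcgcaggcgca
Each stretch of 150 bases held 2 CCAAT matches and 0 GC boxes. In the longer promoter window described next, a GC box match was found for Etfb and not for Etfa. RefSeq promoters, 250 bases before to 50 after a start, were found for 23 of the 30 members and searched on both strands. CCAAT occurred for 10 of the 23 and 41.1% of all 27025 genes with a promoter (37.4% of all 32851 promoters), and GGGCGG for 15 of the 23 and 38.2% of all genes (35.7% of promoters). The half-site AGGTCA of nuclear receptors, which overlaps the longer repeats named next, occurred in the promoters of Acadm, Acadvl, Cpt1a and Echs1, for 18.1% of all genes and in 16.3% of all promoters. The direct repeat AGGTCANAGGTCA, the form bound by PPAR alpha with its partner, occurred for 0 of the 23 and 0.0481% of all genes (0.0396% of promoters), and the looser AGGNCANAGGNCA for 0 of the 23 and 0.451% of all genes (0.381% of promoters). A match is a description of letters, and 0 matches say only that these letters are not in this window.

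As a share of all members' TPM, electron transfer was 13.9%, 14.7% and 14.6% in the controls and 16.8%, 15.99% and 16.7% in the mutants. All mutant shares lay above the control shares. Apart with the mutants lower were the shares of the thioesterases (means 1.68% and 1.07%) and of the ketone body genes (7.82% and 6.72%). Those of the spiral and the shuttle overlapped. The summed TPM of electron transfer was 1138 ± 38.9 in the control and 1098 ± 44.8 in the mutant libraries (SD, n = 3), with overlap. Electron transfer was the only step whose groups overlapped in summed TPM. The spiral sum was 4248 ± 42.1 and 3608 ± 182, the shuttle sum 1765 ± 52.2 and 1429 ± 45.8, and the thioesterase sum 133 ± 7.87 and 71.4 ± 1.62. Those of the ketone body genes were 618 ± 72.6 and 447 ± 9.996. In these 4 steps every mutant library was below every control library.

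**Figure D3:**
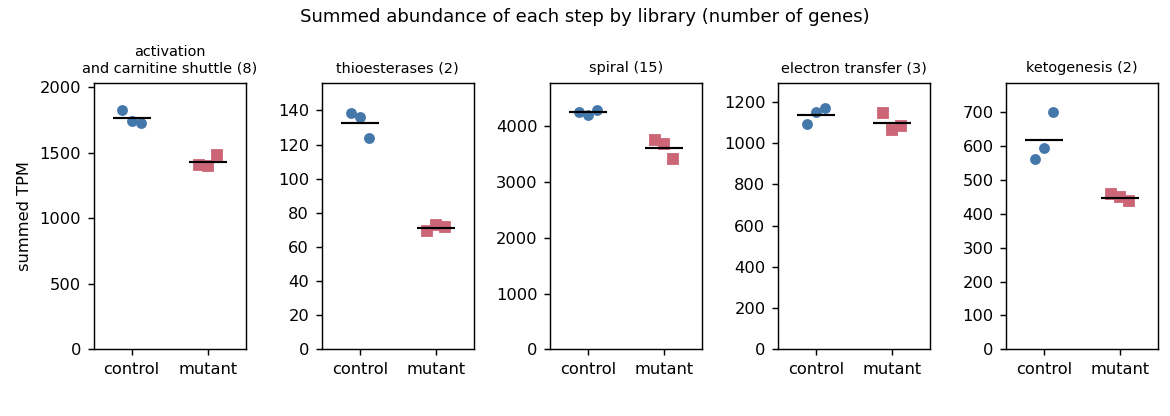
Summed TPM of the genes of each step in each library, with the group mean as a line; every axis starts at 0. The mutant libraries (squares) lie below the control libraries (circles) for 4 steps, and the groups overlap for electron transfer.

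Ketone body formation was represented among the members by Acat1, the mitochondrial acetoacetyl-CoA thiolase, and Bdh1, which interconverts acetoacetate and beta-hydroxybutyrate. Neither was called with TMM. Acat1 had 518, 537 and 631 CPM in the control libraries and 657, 639 and 642 CPM in the mutant libraries, with control 3 near the mutants (0.20 ± 0.10, edgeR, adjusted p = 0.225). Bdh1 had 351, 376 and 432 CPM in the control libraries and 389, 451 and 379.9 CPM in the mutant libraries, overlapping (0.07 ± 0.11, edgeR, adjusted p = 0.719). On TPM both were lower (-0.39 and -0.52; limma, adjusted p = 0.013 and 0.00439).

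The ratios between members were computed for 10 pairs chosen with the values of these genes known. They describe both genes within a library, whichever scaling is used, and no test of them is given, since the choice bears on whether the groups overlap. Besides those named above, Crat to Cpt2 was 0.780 ± 0.055 in the control and 0.463 ± 0.066 in the mutant libraries (SD, n = 3), a log2 difference of -0.76 without overlap. The groups overlapped for Cpt1b to Cpt1a (-1.33) and for Bdh1 to Acat1 (-0.13).

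**Figure D4:**
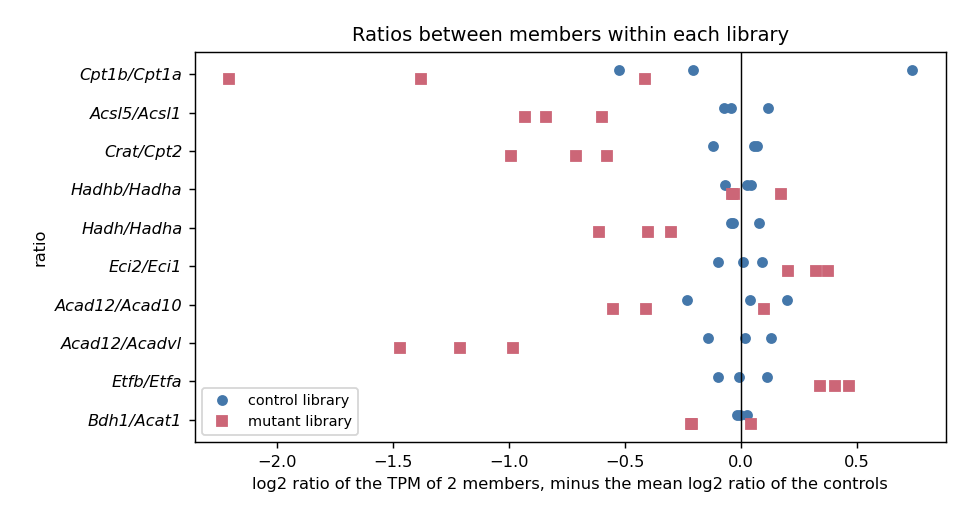
Log2 ratio of the TPM of 2 members within each library, minus the mean of the 3 controls, for 10 pairs chosen with the values known. Of the mutant values (squares) that are apart from the control values (circles), Acsl5/Acsl1, Crat/Cpt2, Hadh/Hadha and Acad12/Acadvl lie lower and Eci2/Eci1 and Etfb/Etfa lie higher.

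Related genes were listed with earlier results of these data known. Of 20 tested other genes of mitochondrial fatty acid oxidation, 5 were called higher, 2 lower and 13 did not pass, with a median log2 fold change of 0.20; with library totals 2 were called higher and 7 lower. Acadsb, the dehydrogenase of short branched chains, and Hsd17b10, a matrix hydroxyacyl-CoA dehydrogenase, were higher with TMM (0.69 ± 0.09 and 0.68 ± 0.09, edgeR, adjusted p = 0.00332 and 0.00359). Both were also called higher with library totals (0.29 and 0.28). On TPM they were at 0.09 and 0.08 and did not pass (limma, adjusted p = 0.356 and 0.391). Slc27a2, a very-long-chain acyl-CoA synthetase and transporter, was higher with TMM (0.53 ± 0.11, edgeR, adjusted p = 0.0166) and at 0.13 with totals, and its call was lost without control 3 (adjusted p = 0.056) and without mutant 1 (adjusted p = 0.0502). Acacb, which makes the malonyl-CoA that inhibits Cpt1a and Cpt1b, had 75.9, 65.8 and 51.5 CPM in the control libraries and 37.8, 29.1 and 39.2 CPM in the mutant libraries. It was lower on every scale (-0.86 ± 0.17, edgeR, adjusted p = 0.0148; -1.26 with totals). With TMM the call was lost without control 1 (adjusted p = 0.0515) and without control 2 (adjusted p = 0.0512). Of 8 tested other ketone body genes, 0 were called higher, 1 lower and 7 did not pass with TMM (median -0.30), and 0 were higher and 5 lower with library totals. The call with TMM was the monocarboxylate transporter Slc16a7 (-0.89 ± 0.11, edgeR, adjusted p = 0.00239).

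Peroxisomes shorten very long chains by a parallel pathway with its own enzymes. Of 21 tested genes, 8 were called higher and 2 lower with TMM (median 0.26), and 1 higher and 8 lower with library totals. Ehhadh, the peroxisomal bifunctional enzyme and a classical PPAR alpha target, had 638, 678 and 510.1 CPM in the control libraries and 1678, 1451 and 1330.0 CPM in the mutant libraries. It was higher with TMM (1.29 ± 0.14, edgeR, adjusted p = 0.00112), with library totals (0.89) and on TPM (0.69), a larger log2 fold change than that of any member. The peroxisomal fatty acid transporter Abcd2 had 61.6, 53.8 and 77.3 CPM in the control libraries and 26.3, 17.3 and 28.6 CPM in the mutant libraries and was called lower (-1.42 ± 0.21, edgeR, adjusted p = 0.00458). Among 21 regulators, 6 were called higher and 2 lower with TMM (median 0.26), and 2 higher and 4 lower with library totals. Ppara had 0.26 ± 0.12 and its coactivator Ppargc1a 0.44 ± 0.29, neither passing (edgeR, adjusted p = 0.195 and 0.356). Lpin1, a phosphatidate phosphatase and coactivator, had 34.0, 32.1 and 38.6 CPM in the control libraries and 263, 85.0 and 165 CPM in the mutant libraries, high but spread in the mutants (2.29 ± 0.35, edgeR, adjusted p = 0.00534). The transcription factors Klf15, Hnf4a and Foxa2 were higher with TMM (1.30 ± 0.16, 0.67 ± 0.10 and 0.62 ± 0.12, edgeR, adjusted p = 0.00193, 0.00597 and 0.0128), of which Klf15 alone passed with library totals (0.90). The Foxa2 call was lost without control 1 (edgeR, adjusted p = 0.0552) and without mutant 1 (adjusted p = 0.0548).

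The members' counts stood near those of other mitochondrial genes. Of 17 tricarboxylic acid cycle genes 6 were called higher and 2 lower (median 0.29), and of 32 nuclear genes of the respiratory chain 9 were called higher and 0 lower (median 0.23). The fumarase Fh1 (0.86 ± 0.15, edgeR, adjusted p = 0.0093) and the complex I subunit Ndufs7 (0.62 ± 0.10, edgeR, adjusted p = 0.00763) had the largest calls named from these lists. With library totals 1 of the former was called higher and 4 lower, 0 of the latter higher and 2 lower, and the medians were -0.11 and -0.17, beside -0.12 for the members and -0.40 for all genes. No test of a difference between lists was made.

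**Figure D5:**
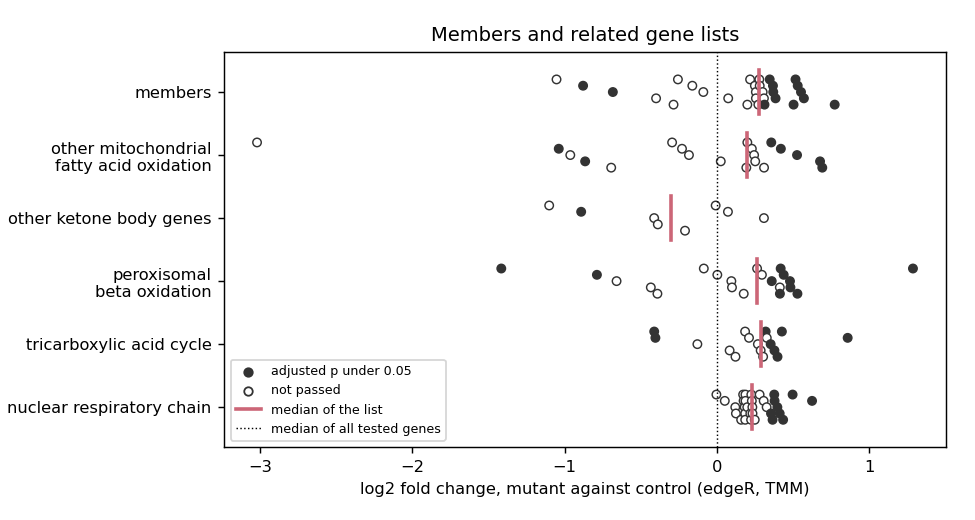
Log2 fold changes (edgeR, TMM) of the members and 5 related lists, with filled points at an adjusted p under 0.05 and a bar at each list's median. The median of the members, 0.28, lies close to those of the peroxisomal (0.26), tricarboxylic acid cycle (0.29) and respiratory chain genes (0.23), and all of these are below 0 with library totals.

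Markers of other cells moved in the same comparison. Hepatocyte markers were called higher in 5 of 10 and lower in 0 with TMM (median 0.29), and higher in 3 and lower in 3 with library totals. Of 10 stellate cell markers 8 were called lower and 0 higher, and their summed level was 437 to 471 CPM in the controls and 176 to 230.5 CPM in the mutants. Of 10 markers of Kupffer cells and macrophages 4 were called lower (199 to 276 CPM against 88.5 to 172 CPM), and of 8 of sinusoidal endothelium 3 (128 to 219 CPM against 96.3 to 143 CPM). Of 5 tested biliary markers 1 was called higher and 1 lower (62.9 to 91.6 CPM against 32.1 to 47.7 CPM). Of 4 tested adipocyte markers 3 were called lower (116 to 127 CPM against 29.7 to 58.1 CPM), with Lep and Ucp1 at 0. In bulk tissue fewer cells of a type and less RNA per cell cannot be told apart, and the part of these markers in the members' values was not tested.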

How the data were processed

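Liver RNA was purified on columns with DNase treatment, enriched for poly(A) RNA and sequenced as paired reads of 150 bases, per the labels' protocols. Cutadapt, STAR and the build mm10 are named in the submitters' processing notes. The sources used here name no counting program, version or strandedness. Per the file headers, the authors deposited estimated counts and TPM for 55487 genes. None of the 108255 nonzero estimated counts was whole within 1e-06, and over 10983 genes the deposited counts equalled TPM times a gene factor and a library factor (largest relative deviation 5.72e-10), so they are not numbers of reads.

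Estimated counts were rounded and tested with edgeR 4.0.16 (R 4.3.3): filterByExpr, TMM, quasi-likelihood F-test on group, Benjamini-Hochberg adjustment over 14286 genes, threshold 0.05. Standard errors came from the F statistic. Alternatives were RLE factors, library totals, no filter, DESeq2 1.42.0, the replicate number as a block, limma 3.58.1 on the log2 of TPM plus a pseudocount of 1 or 0.1 (genes at a TPM of at least 1 in 3 or more libraries), and each library left out in turn. The procedure was tested on simulated data. Coordinates and transcripts are from GENCODE mouse release M21, promoters from RefSeq (GRCm38.p6). The members and lists were chosen with earlier results of these data known. All members are named; from each related list up to 4 called genes with the smallest p were named, and Ppara, Ppargc1a and Rxra whatever their p. A few other genes that this rule names are not reported here. Acot1 was named after its values were seen.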

Additional observations from a re-analysis of the deposited data

How the results depend on the processing

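The number of members called depended most on the scaling. With TMM 11 were called higher and 2 lower, and RLE factors gave the same 11 and 2. Library totals gave 1 and 8 members and 293 and 4508 genes, against 949 and 974 genes with TMM, and 6.10% of calls higher against 49.3%. limma gave 0 and 22 members with both pseudocounts, with 217 and 7362 genes on log2(TPM + 1) and 211 and 7315 on log2(TPM + 0.1). DESeq2 gave 11 and 4 members, and no filter 10 and 3. The deposited values hold no measure of RNA per cell that could set the scale. With each library left out in turn, 5 to 9 members and 426 to 758 genes were called higher, and 0 to 2 members and 430 to 756 genes lower; these fits have fewer samples. Members above the median of all genes numbered 22 of 30 in every one of these settings, and 21 on log2(TPM + 1). A change of scaling alone moves nearly all genes by a similar amount, so it could hardly alter this number.

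With the replicate number as a block, 7 members were called higher and 1 lower, and 775 and 783 genes. The calls of Hadha, Hadhb, Decr1, Etfdh and Acot2 ended there (adjusted p = 0.0549, 0.0547, 0.06, 0.0716 and 0.0533). That of Etfdh also ended with no filter (adjusted p = 0.0682). Deviations from the group mean, over genes, correlated at r = 0.07, -0.01 and 0.11 for same-numbered libraries. For the other pairs r lay between -0.13 and 0.08. The deviations are centred within groups of 3 libraries, so they cannot decide whether the numbers pair the libraries.

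Log2 fold changes that were above 0 with TMM and below 0 with library totals were Cpt1a -0.087, Slc25a20 -0.15, Mlycd -0.18, Acadl -0.096, Acadm -0.14, Acads -0.13, Acad9 -0.11, Hadha -0.050, Hadhb -0.012, Echs1 -0.14, Eci1 -0.12, Decr1 -0.030, Etfa -0.027, Etfdh -0.085, Acat1 -0.20, Bdh1 -0.32, Ppara -0.14, Sucla2 -0.019 and Uqcrc1 -0.0010. The same held on log2(TPM + 1) for Acsl1 -0.088, Cpt1a -0.29, Slc25a20 -0.34, Cpt2 -0.094, Mlycd -0.38, Acadvl -0.067, Acadl -0.30, Acadm -0.34, Acads -0.32, Acad9 -0.31, Hadha -0.25, Hadhb -0.21, Echs1 -0.34, Acaa2 -0.049, Eci1 -0.33, Eci2 -0.028, Decr1 -0.23, Etfa -0.23, Etfdh -0.28, Acat1 -0.39, Bdh1 -0.52, Slc27a2 -0.072, Amacr -0.18, Ppara -0.33, Ppargc1a -0.13, Rxra -0.20, Suclg1 -0.20, Sucla2 -0.22, Sdhb -0.17, Ndufv2 -0.16, Uqcrc1 -0.20 and Atp5o -0.18. With a pseudocount of 0.1 these were below 0 again, with values that differed as printed for Slc25a20 -0.35, Cpt2 -0.095, Acads -0.33, Acad9 -0.32, Hadhb -0.22, Eci2 -0.029, Ppargc1a -0.22 and Atp5o -0.19. With each library left out in turn, Bdh1 was between -0.015 and 0.17, below 0 without mutant 2, and the log2 ratio of Hadhb to Hadha between -0.034 and 0.071, below 0 without mutant 2 and without control 2 (-0.00057). Summed with Acot1, Acot2 was at 0.47 in place of -0.88. Between scalings, the genes listed moved by nearly the same amount. The cause of the other differences was not tested.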

Other observations

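Mutant 2 had the highest value of all 6 libraries for 14 of the 30 members, and control 3 the lowest for 9. Within a group the coefficient of variation of the members' CPM had a median of 4.86% in the controls and 8.22% in the mutants. It was largest for Cpt1b (54.5% and 48.4%) and smallest for Acadm (0.861% and 0.141%).

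Several members share exon bases with another annotated gene, and the strandedness of the libraries is not known here. Acadvl overlaps Dvl2 on the other strand by 1151 bases, with 96.6 to 299 estimated counts for Dvl2 beside at least 17685 for Acadvl. Acsl5 overlaps Zdhhc6 on the other strand by 404 bases, and Zdhhc6 had 2104 to 2873 estimated counts beside at least 8378 for Acsl5. Acad9 shares 559 bases on the same strand with Gm43079 (50.7 to 145 estimated counts, beside at least 945 for Acad9), and Cpt1b shares 2744 bases with Gm44502 (0 to 20.1 estimated counts, beside at least 103 for Cpt1b). The sources used here do not say how reads of shared bases were divided.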
